A study of Mus musculus with 6 samples.

Results

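Metallothioneins and zinc transporters set how much free zinc a cell holds, and 10 of these genes were followed in mouse macrophages exposed to stearic acid. They were chosen by gene name among the 36333 genes listed in each library: the metallothioneins Mt1 and Mt2, the metal-sensing transcription factor Mtf1, the exporters Slc30a1, Slc30a5 and Slc30a7, and the importers Slc39a1, Slc39a6, Slc39a10 and Slc39a14. All 10 were found. Both groups were C57BL/6 macrophages, differentiated from bone marrow for 7 days with the growth factor M-CSF at 10 ng/mL and replated at 250000 cells in each well. In 3 samples the medium then held 100 µM stearic acid, a saturated fatty acid, and in the other 3 an equal volume of its ethanol vehicle, each for 24 h. Polyadenylated RNA was sequenced from each sample, to a depth of 58.1 to 80.8 M (M, 1000000 reads or pairs) as recovered from the deposited values. The labels number the samples 1 to 3 in each group without saying that these were separate animals or cultures. A p-value here therefore covers the spread among 3 samples a group, and that spread may be technical.

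Metallothioneins are small cysteine-rich proteins that bind zinc and copper. When free zinc rises, MTF1 binds metal response elements and drives transcription of Mt1, Mt2 and Slc30a1, while it restrains Slc39a10. Proteins of the Slc30a family (ZnT) move zinc out of the cytosol, to the outside or into organelles, and those of the Slc39a family (ZIP) move it into the cytosol. In macrophages the metallothioneins are known for responding to metals, oxidants, glucocorticoids and inflammatory signals.

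Letter matches to the metal response element are shown first, since MTF1 is known to drive Mt1, Mt2 and Slc30a1. Its part in these data was not tested. RefSeq promoter windows (GRCm38.p6, 250 bases before to 50 bases after a transcript start) were matched for 8 of the 10 genes, all but Slc39a6 and Slc39a14. The core of the metal response element was searched as TGCACNC or TGCGCNC on both strands, where N is any base. In the stretches below, written 5′ to 3′ on the gene's strand, capitals mark matches to that core. The Mt2 stretch is the 250 bases before its start, chr8:94172368-94172617 on the plus strand. The Mt1 stretches are chr8:94179055-94179084 and chr8:94179089-94179118, and the Slc30a1 stretch, around the match before its start, is chr1:191906727-191906756, all on the plus strand. The transcript starts used were 94179089 for Mt1 and 191906781 for Slc30a1. Both lie inside the RefSeq gene spans, which begin at 94178883 and 191906697, so before and from the start refer to these transcript starts. Whether transcription in these cells begins there was not tested, so a match placed from the start need not lie in transcribed sequence. Bases more than 50 after a start were not searched, and the counts leave out any match there.
Mt2: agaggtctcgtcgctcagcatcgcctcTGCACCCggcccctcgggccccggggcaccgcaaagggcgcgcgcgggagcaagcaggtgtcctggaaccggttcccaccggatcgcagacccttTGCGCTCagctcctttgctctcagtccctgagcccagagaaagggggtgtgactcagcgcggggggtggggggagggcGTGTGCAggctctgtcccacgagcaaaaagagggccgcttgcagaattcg
Mt1, before the start: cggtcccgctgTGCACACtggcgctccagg
Mt1, from the start: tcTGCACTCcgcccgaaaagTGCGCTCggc
Slc30a1: acgggggttccGAGTGCAaagcaaagtttt

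Over the whole 300-base windows the core matched 4 times in Mt2, 3 times in Mt1, 2 times in Slc30a1 and once in Slc30a5. It matched in neither of the 2 windows of Slc39a10, nor in those of Mtf1, Slc30a7 and Slc39a1. Of all 32851 windows 25.7% held at least 1 match and 1.97% held 3 or more, the class to which Mt1 and Mt2 belong. Slc30a4 and Slc30a10, zinc genes outside the 10, held 3 each as well. In Slc30a10 the matches at -233 to -227 and -232 to -226 overlap and are read on opposite strands. Such overlapping matches were counted separately, also in the share of all windows with 3 or more. These shares cover all windows and were not matched for content of G and C, which was 60.7% in Mt1 and 67.7% in Mt2. The antioxidant response element core, TGACNNNGC on both strands, matched once each in Mt2, Slc30a1, Slc30a5 and Slc39a1, against 12.4% of all windows. The Mt1 window held none, but it ends at 94179138 and later bases of the gene were not searched. In Mt2 this match is TGACTCAGC, from 79 to 71 bases before the start, and it overlaps none of the metal response matches. A match describes letters in this window and not binding.

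**Figure D1:**
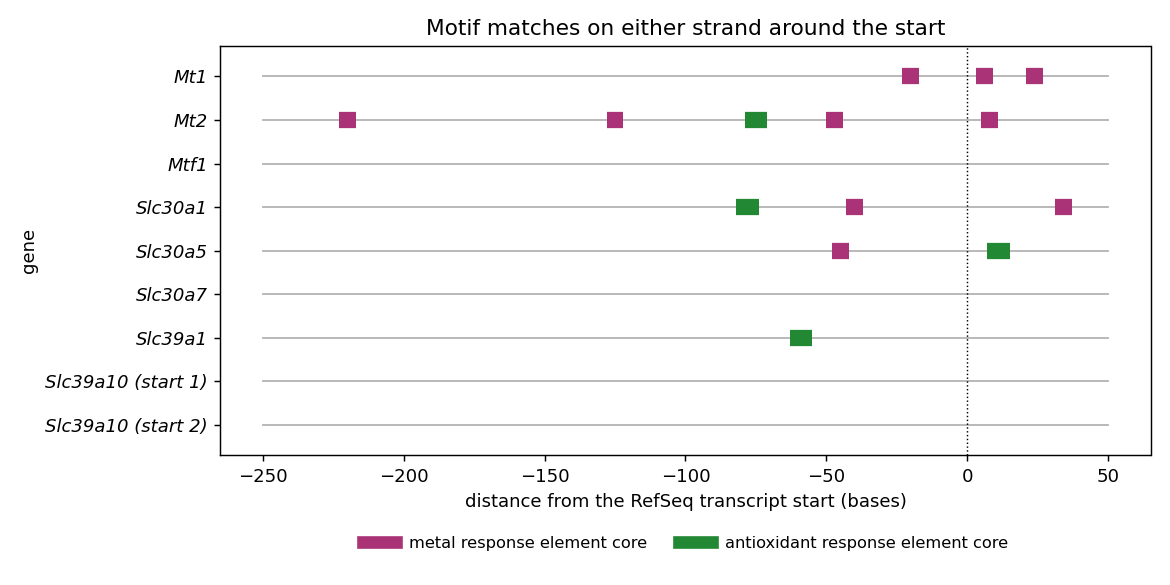
Positions of matches to the metal response element core (purple) and the antioxidant response element core (green) in the promoter windows of 8 genes, as distance in bases from the RefSeq transcript start. Mt2 has 4 purple matches and Mt1 has 3, while the lines of Mtf1, Slc30a7 and both starts of Slc39a10 are empty.

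After stearic acid, the exporter Slc30a1 and the importers Slc39a6 and Slc39a10 rose 1.74-fold, 1.53-fold and 1.54-fold in mean TPM (transcripts per 1000000, a level scaled for transcript length). Mt1 and Mt2 did not pass the test, with mean TPM at 1.00 and 0.920 times vehicle. Of the 10 genes, 3 rose and none fell past a limma adjusted p of 0.05, and 7 did not pass. Among all 11551 tested genes 24.7% were called in either direction, 12.8% of all tested as higher and 11.9% as lower. With 10 genes, a count of 3 is not read as particular to them. At an unadjusted p under 0.05 the same test counted 5 of the 10 higher and 0 lower, against 40.4% of all tested genes in either direction, 19.3% higher and 21.1% lower. The median log2 fold change was 0.14 over the 10 genes and -0.03 over all tested genes. Fold changes on the log2 scale are differences of log2(TPM + 1), which understates the change of low genes.

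In vehicle the levels ran from Mt1, above 94.4% of tested genes by its mean over the 6 libraries, to Mtf1, above 30%. The vehicle order by mean TPM was Mt1, Slc39a1, Slc30a5, Mt2, Slc39a6, Slc30a7, Slc39a14, Slc30a1, Slc39a10 and Mtf1. The first 6 of these were separated from one another in every vehicle library. The last 4 lay between 9.01 and 12.2 TPM and overlapped, so their order is within the spread. With stearic acid Slc39a6 moved from below Mt2 to above it by mean TPM. Both overlapped across libraries (48.7 to 63.4 TPM for Slc39a6 and 44.6 to 52.7 TPM for Mt2), while within each stearic acid library Slc39a6 was the higher, at 1.09, 1.20 and 1.12 times Mt2, against 0.7, 0.694 and 0.675 times in vehicle.

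Mt1 (NCBI gene 17748, chromosome 8, 94178883 to 94180327, GRCm38) stood at 219, 257 and 224 TPM in vehicle replicates 1 to 3 and at 231, 245 and 227 TPM in stearic acid replicates 1 to 3. The stearic acid libraries lay within the range of the vehicle libraries, and the highest library was vehicle replicate 2. Means were 233 ± 20.3 and 234 ± 9.13 TPM (SD, n = 3 per group), and the log2 fold change was 0.01 with a 95% interval from -0.17 to 0.18 (SE 0.08, limma adjusted p = 0.95). Its sign turned in some of the fits that left out 1 library, which gave log2 values from -0.04 to 0.08.

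Mt2 (gene 17750, chromosome 8, 94172618 to 94173567) lies 5315 bases from Mt1. It was listed at 53.4, 52.1 and 54.5 TPM in vehicle and at 44.6, 52.7 and 49.98 TPM with stearic acid. Stearic acid replicates 1 and 3 were below the vehicle libraries and replicate 2 was among them. The log2 fold change of -0.12 did not pass (95% interval -0.30 to 0.06, limma adjusted p = 0.27). Summed, the pair came to 287 ± 19.3 TPM in vehicle and 283 ± 12.1 TPM with stearic acid. Mt1 was 4.10 to 4.93 times Mt2 in vehicle and 4.54 to 5.19 times Mt2 with stearic acid, ranges that overlap. The 2 genes are close paralogs, and how the authors counted reads that fit both is not stated in the labels, so the split between them is uncertain.

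The genes whose 6 values, taken as log2(TPM + 1) minus the vehicle mean, lay nearest to those of Mt1 were Eny2, Dnajc15, Psma5, Anapc10 and Ndufs8. Their Euclidean distances over the 6 libraries were 0.08, 0.08, 0.09, 0.09 and 0.09, among 9565 genes averaging 5 TPM or more. Mt2 was not among these 5. Since Mt1 itself did not pass the test, nearness to it is not read as a shared response to stearic acid.

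Mtf1, the sensor itself (gene 17764, chromosome 4, 124802549 to 124849800), was low in both groups. It stood at 10.5, 9.01 and 10.7 TPM in vehicle and at 11.6, 11.6 and 11.8 TPM with stearic acid. The groups did not overlap, and vehicle replicate 2 was the lowest library. The log2 fold change of 0.20 (SE 0.09) did not pass on TPM as deposited (limma adjusted p = 0.11). It passed with RPKM in place of TPM (0.032), with median-of-ratios scaling (0.035) and with quantile normalization (0.030), at log2 values of 0.21, 0.22 and 0.22. Over all 15 alternatives its limma adjusted p ran from 0.030 to 0.29. Mtf1 overlaps the protein-coding gene 1110065P20Rik, which was at 8.15 to 10.7 TPM in vehicle and 11.96 to 13.5 TPM with stearic acid (log2 0.40, limma adjusted p = 0.027), so their reads may not be separable.

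**Figure D2:**
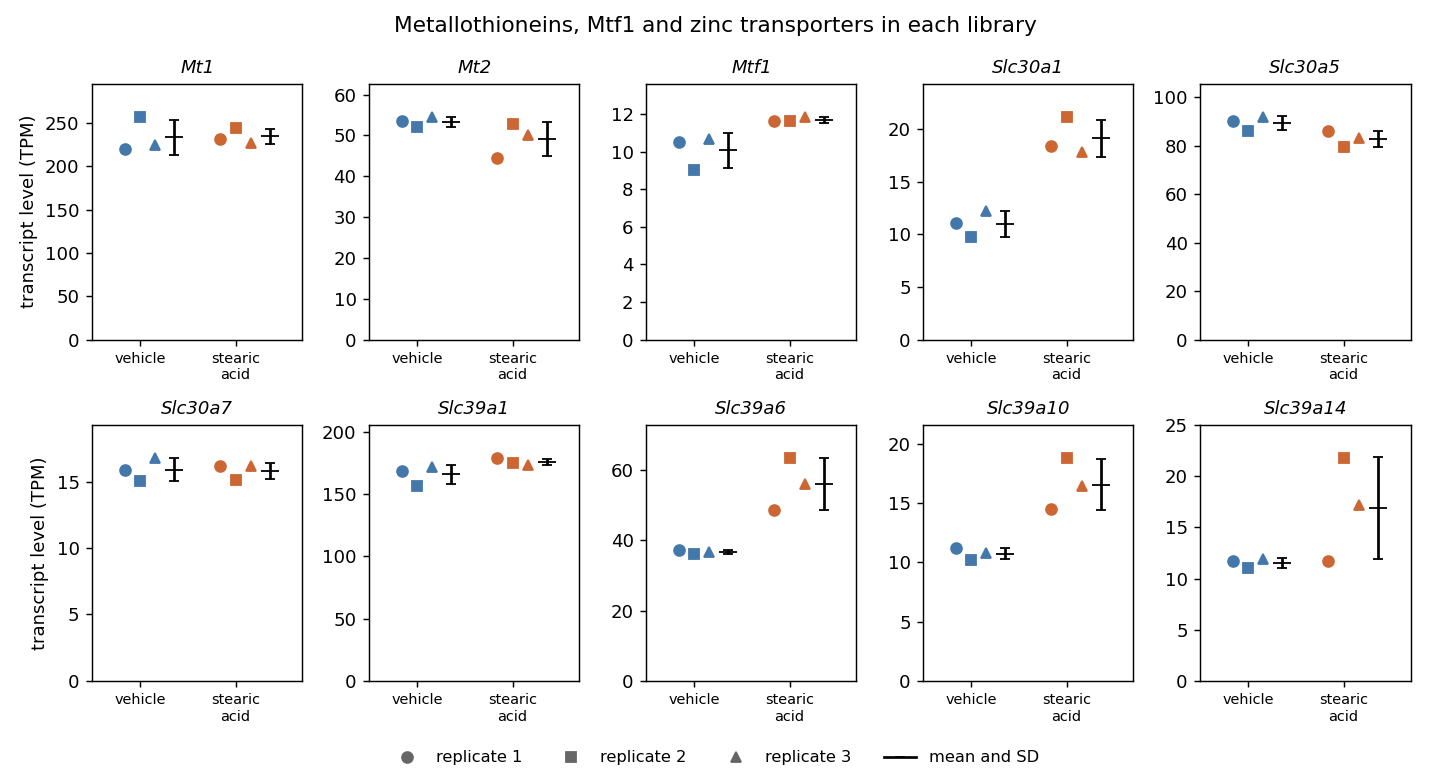
Transcript level in TPM of the 10 genes in each library, 1 panel per gene with its own axis from 0, vehicle in blue and stearic acid in orange, with the mean and SD in black. In Slc30a1, Slc39a6 and Slc39a10 every stearic acid library lies above every vehicle library, and in Mt1 the groups overlap.

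Slc30a1 (gene 22782, chromosome 1, 191906697 to 191913248), the zinc exporter of the plasma membrane, had the largest change of the 10 genes. It stood at 11.1, 9.73 and 12.2 TPM in vehicle and at 18.4, 21.2 and 17.8 TPM with stearic acid. The lowest stearic acid library was well above the highest vehicle library. Means were 11.01 ± 1.24 and 19.1 ± 1.78 TPM (n = 3 per group), with a log2 fold change of 0.75 (SE 0.10, 95% interval 0.52 to 0.98, limma adjusted p = 0.0029). Slc30a1 passed in all 15 alternatives, with limma adjusted p up to 0.029. A noncoding gene, 1700034H15Rik, lies across it on the other strand and was listed at 0.137 to 0.358 TPM, far below Slc30a1 in every library. Per 100 TPM of Mt1 there were 5.05, 3.79 and 5.44 TPM of Slc30a1 in vehicle and 7.96, 8.65 and 7.85 TPM with stearic acid. The ratio was higher in every stearic acid library than in any vehicle library. With Mt1 at 1.00 times vehicle, this ratio carries the change of Slc30a1 and little else, and it was not tested.

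The exporters of the secretory pathway did not pass. Slc30a5, which loads zinc into early secretory compartments, was at 90.0, 86.1 and 91.8 TPM in vehicle and at 86.0, 79.2 and 83.1 TPM with stearic acid. Its groups were separated by less than 0.1 TPM (86.1 against 86.0), and the log2 fold change was -0.11 (95% interval -0.26 to 0.04, limma adjusted p = 0.24). Slc30a7, which fills the Golgi, was at 15.1 to 16.8 TPM in vehicle and 15.1 to 16.2 TPM with stearic acid. Its log2 fold change was -0.01 on TPM as deposited (95% interval -0.18 to 0.17, limma adjusted p = 0.96), and its sign turned under 3 other scalings (log2 0.01 to 0.03).

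Among the importers, Slc39a6 (ZIP6, gene 106957, on chromosome 18), which works at the plasma membrane in a complex with ZIP10, stood at 37.4, 36.2 and 36.8 TPM in vehicle. With stearic acid it stood at 48.7, 63.4 and 56.1 TPM. The vehicle libraries were nearly equal, while the stearic acid libraries spread widely above them. Means were 36.8 ± 0.604 and 56.1 ± 7.35 TPM (n = 3 per group), with a log2 fold change of 0.59 (SE 0.10, 95% interval 0.37 to 0.80, limma adjusted p = 0.0056). Slc39a6 passed in all 15 alternatives, with limma adjusted p up to 0.047.

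Slc39a10 (ZIP10, gene 227059, chromosome 1, 46807544 to 46925776), the partner of ZIP6, stood at 11.2, 10.2 and 10.8 TPM in vehicle and at 14.5, 18.8 and 16.4 TPM with stearic acid. The order of the stearic acid libraries was the same as for Slc39a6, with replicate 1 lowest and replicate 2 highest. The log2 fold change was 0.57 (SE 0.10, 95% interval 0.35 to 0.80, limma adjusted p = 0.0073). Slc39a10 passed in 14 of 15 alternatives and missed without vehicle replicate 2 (log2 0.54, limma adjusted p = 0.052, against 7.9e-05 at the lowest).

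Slc39a14 (ZIP14, gene 213053, chromosome 14, 70303467 to 70351452), an importer of zinc, iron and manganese, differed between the stearic acid libraries. It stood at 11.7, 11.01 and 11.9 TPM in vehicle and at 11.7, 21.8 and 17.2 TPM with stearic acid. Stearic acid replicate 1 lay within the vehicle range and the other two lay above it. The log2 fold change of 0.47 (SE 0.18, 95% interval 0.07 to 0.88) did not pass (limma adjusted p = 0.079). Without stearic acid replicate 1 it was 0.70 and passed (limma adjusted p = 0.00011), and without stearic acid replicate 2 it was 0.28 (limma adjusted p = 0.14). With the replicate number as a term Slc39a14 also passed (limma adjusted p = 0.033), though the labels do not say that the numbers pair the samples. Its highest limma adjusted p over the alternatives was 0.20.

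Slc39a1 (ZIP1), a plasma membrane importer and the most abundant of the 4 by TPM, was at 169, 157 and 172 TPM in vehicle and at 179, 175 and 174 TPM with stearic acid. The groups did not overlap, the means differed 1.06-fold, and the difference did not pass (log2 0.09, 95% interval -0.06 to 0.23, limma adjusted p = 0.34). Across the 10 genes the groups did not overlap in 6, 5 with stearic acid higher and 1 lower. The same held for 44.6% of all tested genes, and 22.8% had stearic acid higher.

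**Figure D3:**
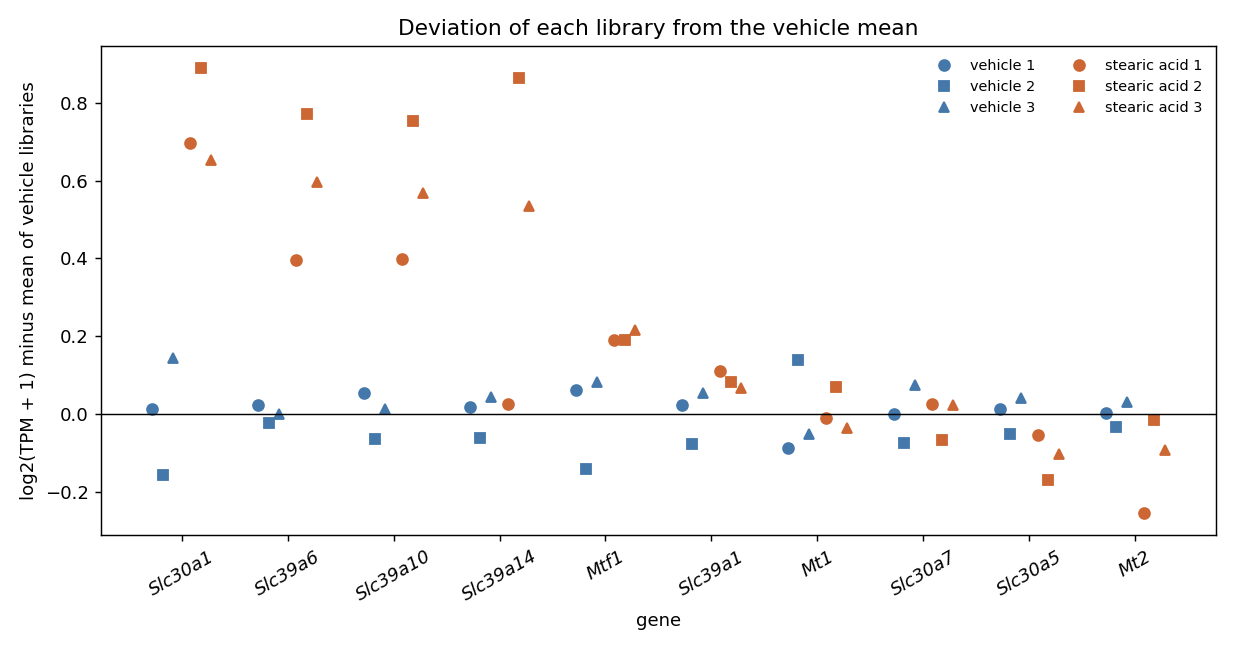
Difference of each library from the vehicle mean, in log2(TPM + 1), for the 10 genes, vehicle in blue and stearic acid in orange, with the replicate number shown by the symbol. Stearic acid replicate 2 (orange square) is at 0.77, 0.75 and 0.86 for Slc39a6, Slc39a10 and Slc39a14, and replicate 1 (orange circle) at 0.40, 0.40 and 0.03.

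The 3 stearic acid libraries responded to different extents. Their median absolute log2 difference from vehicle over all called genes was 0.28, 0.60 and 0.43 in replicates 1, 2 and 3. Slc39a6, Slc39a10 and Slc39a14 followed that order, at 0.40, 0.77 and 0.60 for Slc39a6. Slc30a1 did not, with 0.70, 0.89 and 0.65. Vehicle replicate 2 was the lowest vehicle library in 9 of the 10 genes, Mt1 being the exception. The same share over all genes was not counted, so 9 of 10 is not read as particular to these genes. The median-of-ratios size factor of vehicle replicate 2 on TPM was 0.961, against 1.02 and 1.05 for vehicle replicates 1 and 3. Stearic acid replicate 2 had a similar factor, 0.967. Without vehicle replicate 2, Slc30a1 and Slc39a6 still passed and Slc39a10 did not. The calls over all tested genes then fell from 1482 to 384 higher and from 1374 to 166 lower.

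Of 19 other genes of the zinc families, 10 were tested, 3 rose, none fell and 7 did not pass, with a median log2 fold change of 0.12. Against the 24.7% called among all tested genes, 3 of 10 is not read as particular to this list, and without the filter on low values Slc39a7 alone of the 3 kept its call. Slc39a7 (ZIP7), which releases zinc from the endoplasmic reticulum into the cytosol, stood at 125, 110 and 118 TPM in vehicle and at 170, 209 and 185 TPM with stearic acid. All its stearic acid libraries were above all vehicle libraries (log2 0.67, SE 0.09, limma adjusted p = 0.0025), and it passed in all 15 alternatives. Slc30a4, which fills endosomal vesicles with zinc, was at 9.97 ± 0.581 TPM in vehicle and rose to 12.9 ± 0.654 TPM (log2 0.35, limma adjusted p = 0.018). Slc39a11 (ZIP11) was at 26.3 ± 2.05 TPM in vehicle and rose to 31.8 ± 1.37 TPM (log2 0.27, limma adjusted p = 0.040). Neither of these last genes passed without vehicle replicate 1, without vehicle replicate 2, without stearic acid replicate 3 or without the filter on low values, with limma adjusted p up to 0.083 for Slc30a4 and 0.11 for Slc39a11. The latter also missed when vehicle replicate 3 or stearic acid replicate 2 was left out. Slc39a11 overlaps 6 genes, the protein-coding Cog1 and Sstr2 among them, and Slc30a4 overlaps the noncoding 4930417H01Rik. Reads of these overlapping genes may not be separable. Slc39a8 (ZIP8), an importer of zinc and manganese, was at 12.8 ± 0.198 TPM in vehicle and 11.3 ± 0.734 TPM with stearic acid (log2 -0.17, limma adjusted p = 0.14).

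**Figure D4:**
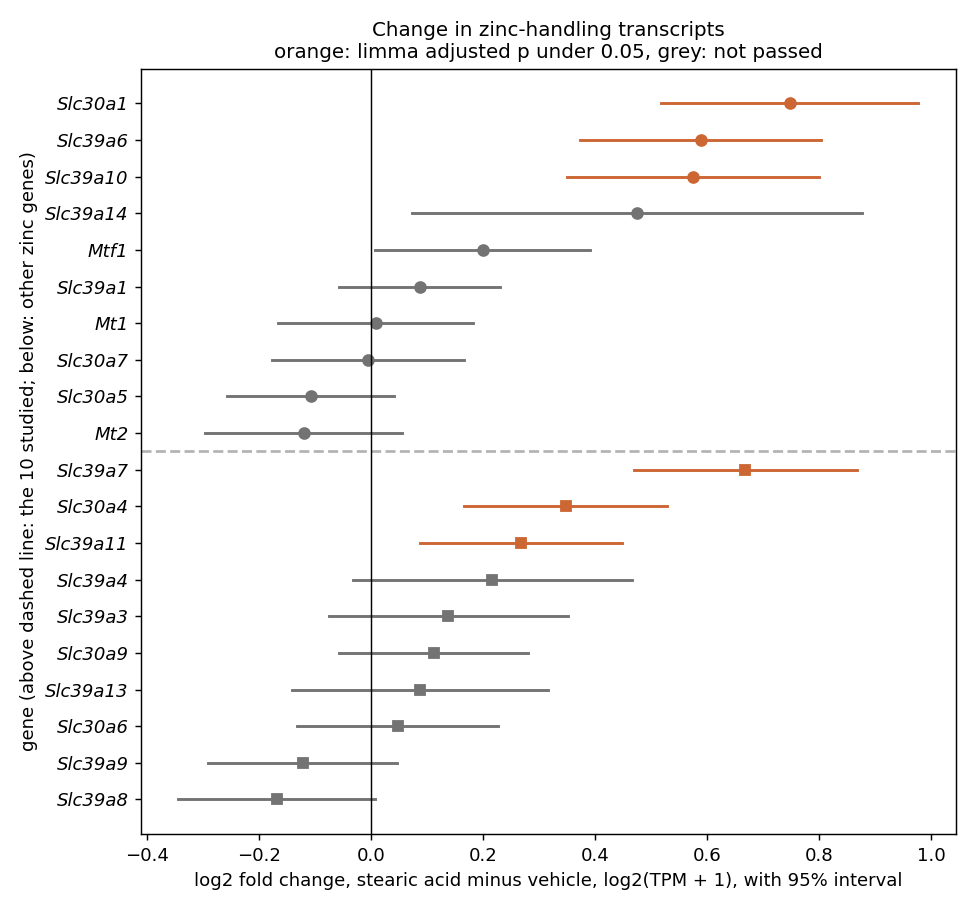
Log2 fold change of log2(TPM + 1), stearic acid minus vehicle, with 95% intervals from limma, for the 10 genes (circles, above the dashed line) and the 10 other tested zinc genes (squares). Orange marks Slc30a1, Slc39a6, Slc39a10, Slc39a7, Slc30a4 and Slc39a11, the 6 with a limma adjusted p under 0.05, and all of them lie to the right of 0.

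Below the filter of a mean of 1 TPM, the third metallothionein Mt3, best known from the brain, was listed at 0.402, 0.279 and 0 TPM in vehicle and at 1.01, 1.35 and 0.736 TPM with stearic acid. Every stearic acid library was above every vehicle library. The exact permutation test (two-sided, 20 assignments) gave a p of 0.1, which is as low as this design can reach, and without the filter the limma adjusted p was 0.056. Slc39a12 (ZIP12) was listed at 0.223 to 0.256 TPM in vehicle and 0.0563 to 0.129 TPM with stearic acid, and its limma adjusted p without the filter was 0.034. Both were singled out after their values were seen. Mt4, Slc30a8 and Slc30a10 were listed at 0 in all 6 libraries.

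Summed over the 14 Slc39a genes, importer transcripts came to 506, 458 and 505 TPM in vehicle and to 583, 641 and 599 TPM with stearic acid. The stearic acid libraries were all higher. Of the difference of 118 TPM between the group means, Slc39a7 made up 59.5%, Slc39a6 16.3%, Slc39a1, which did not pass, 8.6%, and Slc39a10 4.9%. The 10 Slc30a genes summed to 167, 160 and 175 TPM in vehicle and to 176, 174 and 174 TPM with stearic acid, where the groups overlapped. Their means differed by 7.18 TPM, to which Slc30a1 gave 8.12, Slc30a4 2.98, Slc30a9 2.13 and Slc30a5 -6.52 TPM. Of these 4 only Slc30a1 and Slc30a4 passed the test. These sums weight abundant genes most and were not tested.

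**Figure D5:**
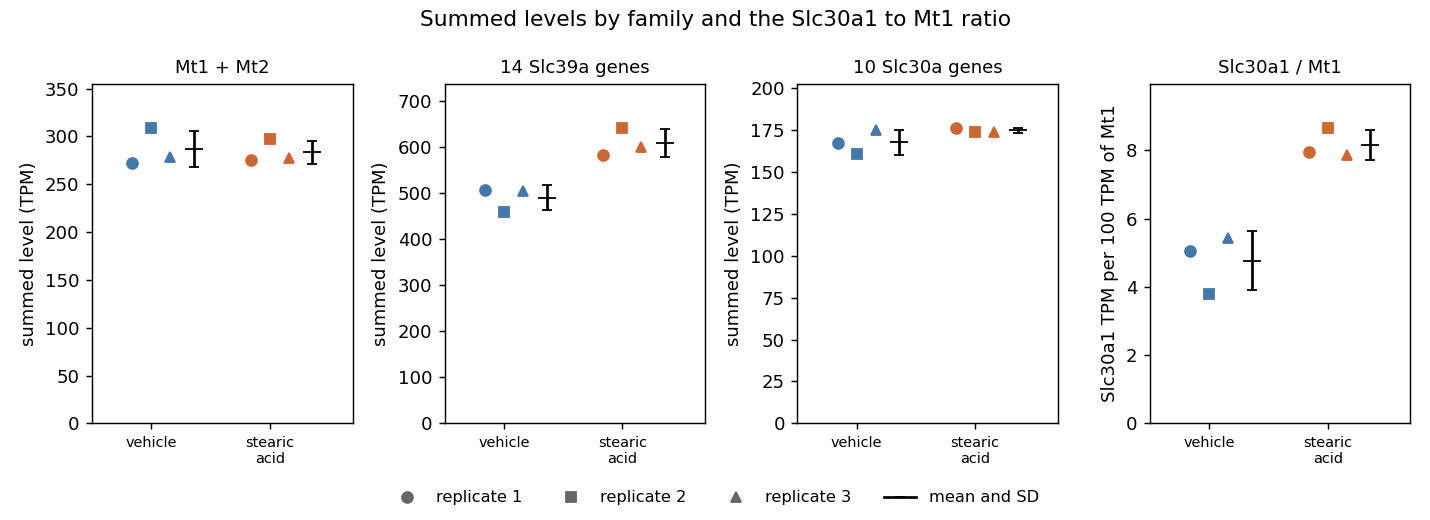
Summed TPM of Mt1 and Mt2, of the 14 Slc39a genes and of the 10 Slc30a genes, and Slc30a1 TPM per 100 TPM of Mt1, in each library, with mean and SD in black and all axes from 0. The Slc39a sum is 583 to 641 TPM with stearic acid and 458 to 506 TPM in vehicle, while the Mt1 and Mt2 sums overlap.

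Of 7 genes described elsewhere as bound or controlled by MTF1, beside the 10, 6 were tested, 1 rose and 1 fell. Counts for this list and for the copper and glucocorticoid lists stand against the same 24.7% called among all tested genes, and with 6 to 12 genes each none is read as particular to its list. Gclc, the catalytic subunit that makes the glutathione precursor, was at 49.9 ± 2.54 TPM in vehicle and rose to 79.2 ± 12.1 TPM (log2 0.64, limma adjusted p = 0.0067; 0.054 without vehicle replicate 2). Csrp1, a LIM-domain protein, was at 246 ± 4.36 TPM in vehicle and 197 ± 18.7 TPM with stearic acid, a fall by 0.33 on the log2 scale (limma adjusted p = 0.021). Csrp1 missed the threshold without any 1 vehicle library, without stearic acid replicate 3 and without the filter (limma adjusted p up to 0.083). The other 4 tested did not pass, and the median log2 fold change of the 6 was 0.08. Slc40a1, the iron exporter ferroportin, was at 17.6, 17.2 and 19.97 TPM in vehicle and at 28.2, 21.9 and 19.9 TPM with stearic acid and did not pass (log2 0.33, limma adjusted p = 0.081).

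Of 14 copper-handling genes 12 were tested, 3 rose, 1 fell and 8 did not pass, with a median log2 fold change of 0.03. Sco2, which delivers copper to cytochrome c oxidase, stood at 6.17, 5.60 and 5.58 TPM in vehicle and at 12.4, 15.7 and 12.9 TPM with stearic acid. Its groups were widely separated (log2 1.11, SE 0.10, limma adjusted p = 0.00047), and it passed in all 15 alternatives. Steap3, a metalloreductase, rose by 0.45 on the log2 scale (limma adjusted p = 0.0098; 0.054 without vehicle replicate 2). Cox17, the copper chaperone of mitochondria, rose by 0.40 (limma adjusted p = 0.025). Atox1, which hands copper to the secretory pathway pumps, was at 692 ± 42.7 and 593 ± 27.0 TPM and fell by 0.22 on the log2 scale (limma adjusted p = 0.047). Cox17 missed in 4 alternatives (limma adjusted p up to 0.095) and Atox1 in 10, median-of-ratios scaling and RPKM among them (up to 0.16).

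Of 8 genes known to be induced by glucocorticoids, which also induce metallothioneins, all 8 were tested, 3 rose, 1 fell and 4 did not pass. None of the 8 was called without the filter on low values or without vehicle replicate 2. Dusp1, a MAP kinase phosphatase, was at 44.0 ± 4.77 TPM in vehicle and rose to 70.8 ± 12.3 TPM (log2 0.67, limma adjusted p = 0.011; 0.062 without vehicle replicate 2 and 0.056 without the filter). Fkbp5, a standard glucocorticoid target, was at 48.3 ± 1.24 and 50.6 ± 5.29 TPM (log2 0.06, limma adjusted p = 0.63). Sgk1 and Klf9 rose by 0.26 and 0.44 on the log2 scale and Zbtb16 fell by 0.42 (limma adjusted p = 0.025, 0.034 and 0.042). None of these 3 passed without any 1 vehicle library (limma adjusted p up to 0.15 over all alternatives). Without the filter their limma adjusted p values were 0.0503, 0.11 and 0.11.

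As background to these values, macrophage markers were abundant in every library. The summed level of 7 markers was 32334 to 33275 TPM in vehicle and 22964 to 28497 TPM with stearic acid. Lyz2 made up most of that sum, at means of 26281.5 TPM in vehicle and 19817.5 TPM with stearic acid. Of the 7 markers 4 were lower, 1 higher and 2 not passed. Among all tested genes 11.9% were lower and 12.8% higher, and with 7 genes the count is not read as particular to them. Lyz2, which encodes lysozyme, fell by 0.41 on the log2 scale, Adgre1, which encodes F4/80, by 0.59, the integrin gene Itgam by 0.51 and the Fc receptor gene Fcgr1 by 0.39, while Cd68, a lysosomal glycoprotein, rose by 0.30 (limma adjusted p = 0.016, 0.011, 0.023, 0.014 and 0.015). Without the filter on low values Fcgr1 alone of these 5 passed (limma adjusted p = 0.047). In bulk RNA fewer cells of a type and less RNA per cell cannot be told apart. Of 5 neutrophil markers only S100a8, a zinc-binding subunit of calprotectin, reached the filter, and it was at 3.33 ± 1.19 TPM in vehicle and rose to 6.41 ± 0.467 TPM (log2 0.81, limma adjusted p = 0.016; not passed without vehicle replicate 2 or without the filter, up to 0.075). Its partner S100a9 was at 0 to 0.715 TPM, and Ly6g, Mpo and Elane were each at 0.0822 TPM or less in every library. The summed neutrophil markers were at 2.37 to 4.63 TPM in vehicle and 6.26 to 7.18 TPM with stearic acid. S100a8 made up most of this sum. The means of S100a9 (0.295 and 0.145 TPM), Ly6g, Mpo and Elane were lower with stearic acid, all below the filter, so the sum does not describe the marker set. Markers of dendritic cells, lymphoid cells, stroma and red cells all had means below the filter. Their sums were 0.868 to 1.04, 0.225 to 0.501, 1.69 to 3.44 and 0 to 0.067 TPM in vehicle and 0.655 to 0.943, 0.159 to 0.477, 0.936 to 2.66 and 0 to 0.204 TPM with stearic acid, and the groups overlapped in each. Of 3 mast cell markers, also below the filter by their means, the summed level was 0.39 to 0.554 TPM in vehicle and 1.05 to 1.40 TPM with stearic acid. Kit, a growth factor receptor gene, made up nearly all of it, at 0.504, 0.504 and 0.390 TPM in vehicle and at 1.05, 1.40 and 1.32 TPM with stearic acid. The groups did not overlap, the means differed 2.70-fold, and without the filter the limma adjusted p was 0.022. The mast cell protease genes Cpa3 and Mcpt4 were at 0 in all libraries but 1, where Cpa3 was at 0.0506 TPM. Kit was singled out after its values were seen. The part of these markers in the zinc gene results was not tested.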

How the data were processed

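The authors deposited 1 table per library, 6 in all, with TPM and RPKM for each of 36333 genes, per the file headers. The submitters' processing notes name DRAGEN and the builds GRCm38 and mm10. The annotation, the counting rule and the use of strand are not stated in the labels or headers. Depth, recovered from the steps between low RPKM values of genes under 6 kb through RefSeq gene lengths, ranged from 58.1 to 80.8 M (M, 1000000; single reads or pairs, which the values do not settle), so that 1 TPM stood for 19.1 to 27.7 of them per kilobase. No whole counts were rebuilt.

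Log2(TPM + 1) of the 11551 genes averaging 1 TPM or more was fitted with limma 3.58.1 (intensity trend, treatment as the only term, R 4.3.3), with Benjamini-Hochberg adjustment over all of them and a threshold of 0.05. The test was also run on simulated data with independent noise, spreads shuffled among genes and the same change in every treated library. That setting does not cover the unequal response of the stearic acid libraries, and no support is drawn from it. Alternatives were other pseudocounts, filters, scalings and variance models, RPKM, the replicate number as a term, and leaving out each library. Positions and promoter windows came from RefSeq GRCm38.p6, where 35337 gene numbers matched. Selenow was matched through its number to the deposited name Sepw1, and S100a12 was not analysed here.

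The 10 genes and the related lists were chosen with earlier results of these data known, so the counts are descriptions. The genes named are the 10, the called members of a related list (all where 5 or fewer were called), the called macrophage and neutrophil markers, and the 5 genes nearest to Mt1. Members named beyond that rule were chosen after their values were seen.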

Additional observations from a re-analysis of the deposited data

How the results depend on the processing

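Of 150 refits of single genes (10 genes, 15 alternatives), 136 kept direction and side of the threshold, 1 lost a call (Slc39a10), 5 gained one (Mtf1 in 3, Slc39a14 in 2) and 8 turned sign, all of Mt1 or Slc30a7. Slc30a7 gave log2 0.03 with RPKM, 0.016 with median-of-ratios scaling and 0.0091 with quantile normalization. In fits that left out 1 library, log2 ran from -0.036 to 0.078 for Mt1 and from -0.043 to 0.031 for Slc30a7, and 2 to 4 of the 10 genes were higher and 0 lower. Over all genes, those fits called 384 to 2223 higher and 142 to 2787 lower, against 1482 and 1374, and no filter on low values gave 672 and 355. The whole-table counts thus moved with single libraries: without vehicle replicates 1, 2 and 3 they were 684, 384 and 486 higher and 389, 166 and 142 lower, without stearic acid replicate 1 there were 2787 lower, and without stearic acid replicate 3 there were 585 higher and 420 lower. With the replicate block 1641 were higher and 1997 lower, and Slc39a14 passed (limma adjusted p = 0.033). The shared numbers were not taken as pairs, since the labels do not say that they are. Deviations of same-numbered libraries correlated at 0.07, 0.29 and 0.04, and 3 of 6 libraries correlated best with their own number. These values cannot exclude pairing, because each deviation is taken from the mean of only 3 libraries. At 19.1 to 27.7 reads or pairs per kilobase for 1 TPM, few reads stand behind Mt3 and Slc39a12.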
